A study of Mus musculus with 4 samples.

Results

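Connexins are the membrane proteins from which gap junctions are built, and 5 mouse connexin genes were followed here: Gja1, Gjb1, Gjb2, Gjb5 and Gjc1. They were chosen by name, as every probe set of the array whose platform annotation gave 1 of these symbols and no other. This gave 12 of the 45037 probe sets that were not controls, namely 6 for Gja1, 2 each for Gjb1 and Gjc1, and 1 each for Gjb2 and Gjb5. A probe set is a group of short probes that reads 1 transcript region. Other probe sets of these genes that the annotation leaves unnamed were not used here.

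A gap junction joins the cytoplasm of neighbouring cells: a ring of connexin subunits in one membrane docks with a ring in the next, and ions and small metabolites pass through. In liver, hepatocytes are coupled mainly by connexin 32 (Gjb1) and connexin 26 (Gjb2), and connexin 43 (Gja1) is the usual connexin of non-parenchymal, ductal and many cultured cells. Connexin 45 (Gjc1) is known from early embryonic, smooth muscle and cardiac conduction cells, and the Gjb5 product from stratified epithelium and trophoblast.

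RNA was measured on 4 Affymetrix Mouse430_2 arrays. MMH-D3, a line described as hepatocytic and differentiated, was hybridised 2 times. Against it stood 2 lines of resident liver stem cells (RLSC), picked for palmate morphology and hybridised once each. MetE14/3 (clone B2) derives from fetal liver of a mouse carrying cyto-Met, a truncated Met receptor, at 14 days post coitum, and WTE14/1 from an embryo of that age labelled WT. MMH lines are known, as background, from mice with such a Met transgene, but the labels give MMH-D3 no genotype, age or clone, and the transgene no promoter. They do not say if the MMH-D3 replicates were separate cultures, and the WTE14/1 sample carries the source name WT E14/3. The protocol starts every line as a primary liver culture on collagen I with 50 ng/ml epidermal growth factor, 30 ng/ml insulin-like growth factor II and 10 µg/ml insulin. That medium held 10% serum, as did the basal medium in which the RLSC colonies were then expanded before freezing after about 50 generations. The labels give this expansion for the RLSC lines and not for MMH-D3. The p-values therefore measure the spread between these arrays, which may be technical within MMH-D3 and holds the difference between lines within RLSC.

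The values are deposited signals on a linear scale. Array medians ran from 16.9 to 28.02 and maxima from 15301 to 19155, so none of the connexin signals lay near the top of the scale. The 24 poly-A control probe sets, which read spiked RNA, were 9.46-fold higher (median) on MMH-D3 array 1 and MetE14/3, called pair A, than on MMH-D3 array 2 and WTE14/1, called pair B. The 18 hybridization controls differed 0.880-fold. Each pair held 1 array of each group, so each group difference is also given within pairs. Of the 5 named hepatocyte markers with a probe set (Alb, Afp, Apob, Ttr, Hnf4a), 5 had lower signals on both RLSC arrays than on both MMH-D3 arrays. Albumin read 1.70 and 2.91 on the RLSC arrays, 44.7 on MMH-D3 array 1 and 440 on array 2.

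The promoters of Gja1 and Gjb1, the tested connexins with the smallest and the widest difference between the groups, are shown as context for the transcripts measured. Of the 5 genes, 4 had windows in a RefSeq table of build GRCm38.p6, with 7 annotated starts in all; Gjc1 was not among them. Each run below is the 250 bases before an annotated start, 5′ to 3′ on the gene's strand, which is plus for Gja1 and Gjb1. Capitals mark matches on either strand to TGAGTCA (AP-1), GGGCGG (the GC box of Sp1) or TATAAA (the TATA box). No motif overlaps another in these windows.
Gja1, chr10:56377050-56377299: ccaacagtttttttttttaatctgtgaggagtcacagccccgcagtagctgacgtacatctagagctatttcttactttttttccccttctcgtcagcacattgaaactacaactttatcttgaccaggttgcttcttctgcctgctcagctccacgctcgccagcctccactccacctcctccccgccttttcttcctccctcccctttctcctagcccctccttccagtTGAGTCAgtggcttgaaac
Gjb1, the fourth of 4 starts, chrX:101383482-101383731: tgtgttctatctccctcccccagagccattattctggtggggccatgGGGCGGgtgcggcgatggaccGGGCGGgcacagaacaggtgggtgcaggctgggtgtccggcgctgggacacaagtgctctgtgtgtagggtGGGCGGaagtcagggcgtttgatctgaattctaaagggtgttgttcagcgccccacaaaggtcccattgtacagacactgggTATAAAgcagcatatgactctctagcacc
The Gja1 window held 1 AP-1 match, which ended 13 bases before the start. The fourth Gjb1 window held 3 GC boxes and 1 TATA box, 24 bases before its start. The AP-1, GC box and TATA box letters were not found in the windows of the other 3 Gjb1 starts. The Gjb2 window, with 69.2% G and C, held 2 GC boxes and the Gjb5 window 1 reversed TATA box. Among 32851 windows of 250 bases, 4.46% held the AP-1 letters, 32.7% the GC box and 12.4% the TATA box. The matches describe sequence alone, and the array signals are not assigned to a particular start.

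The series compared RLSC with MMH-D3, and the connexins did not move as a family. Gjb1 had lower signals in RLSC, Gjc1 higher ones, Gjb5 lower ones and Gja1 a small difference, while Gjb2 was near the floor throughout. None of the 4 genes that could be tested passed limma's test at an adjusted p of 0.05, against 0.913% of the 12598 genes tested (0.397% higher and 0.516% lower in RLSC). At an unadjusted p of 0.05, 3 of the 4 (Gjb1, Gjb5 and Gjc1) passed, with 1558 of all genes. On the normalized scale the groups did not overlap at 4 of the 4 genes, against 42.2% of all genes: 2 lay above in RLSC, against 20.8%, and 2 below, against 21.4%. On the deposited signals the groups did not overlap at 3 of 4, against 40.3%. Differences are RLSC minus MMH-D3 in log2(signal + 4) after quantile normalization, with limma's standard error (SE). A gene entered the test if its mean lay above the 40th percentile, a signal of about 11.7, and its probe set with the highest mean stood for it. The RLSC means of Gjb1 and Gjb5 on the normalized scale, 3.92 and 3.71, lay under that level. Both genes thus entered the test through their MMH-D3 signals (means 9.25 and 6.46), and their p-values and lack of overlap carry that limit. In RNA from whole cultures, fewer cells of a type and less RNA per cell cannot be told apart.

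**Figure D1:**
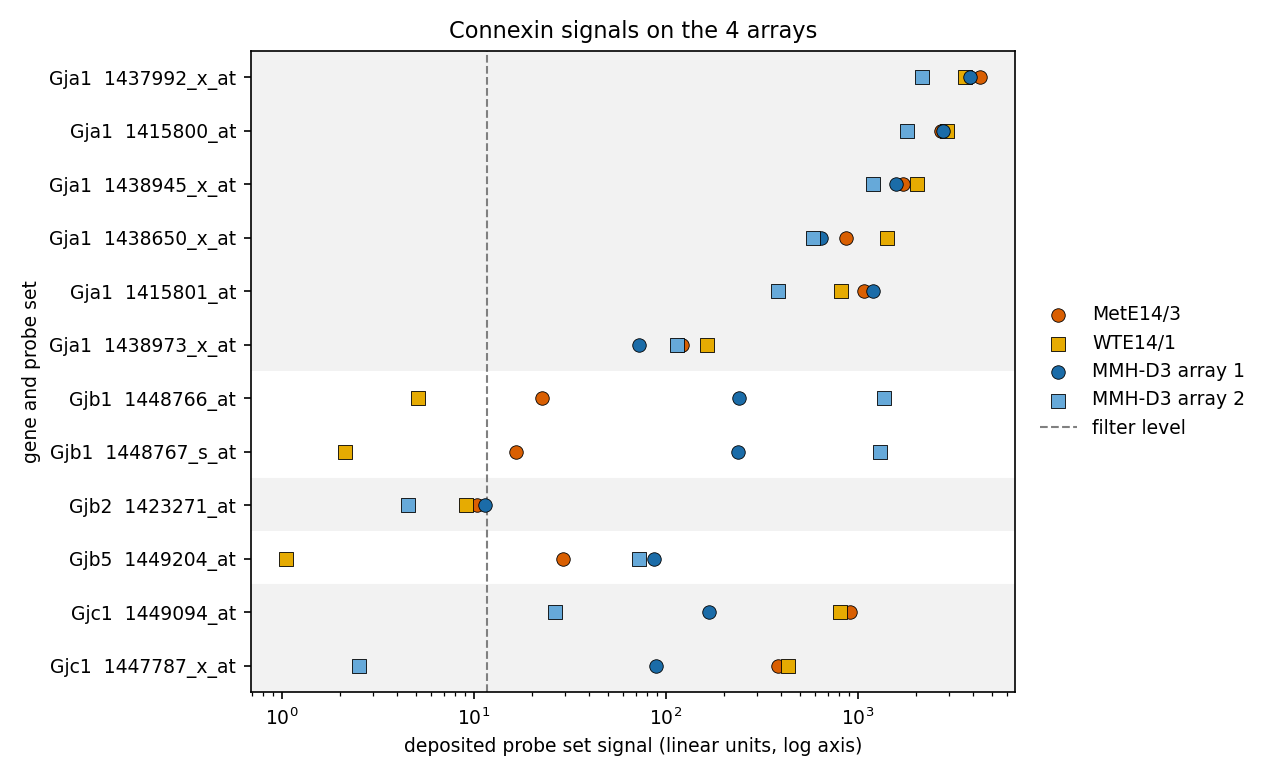
Deposited signal (log axis) of the 12 connexin probe sets on each of the 4 arrays, with a dashed line at the filter level of about 11.7. Each Gja1 probe set varies less over the arrays than those of Gjb1 and Gjc1, both Gjb1 probe sets run from 1371 and 1312 on MMH-D3 array 2 down to 5.14 and 2.14 in WTE14/1, and both Gjc1 probe sets are highest in the RLSC lines.

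Gjb1 encodes connexin 32, the main gap junction protein of hepatocytes. Its probe set 1448766_at read 22.6 in MetE14/3 and 5.14 in WTE14/1, against 241 on MMH-D3 array 1 and 1371 on array 2. Both MMH-D3 arrays were thus far above both RLSC arrays, and the WTE14/1 signal lay under the filter level. RLSC averaged 13.9 ± 12.3 and MMH-D3 806 ± 799 (SD, n = 2 arrays each). The difference was -5.33 (SE 0.97), a 40.3-fold lower value in RLSC that did not pass (limma adjusted p = 0.0779, unadjusted p = 0.00132, 95% interval -7.68 to -2.99). Without MetE14/3 it was -6.23 and passed (limma adjusted p = 0.0492). Over all alternatives with a test the adjusted p ran from 0.0492 to 0.401.

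The second Gjb1 probe set, 1448767_s_at, gave the same order of arrays. It read 16.5 in MetE14/3, 2.14 in WTE14/1, 238 on MMH-D3 array 1 and 1312 on array 2. In a fit over all 27022 probe sets past the filter, where 0.733% passed, its difference was -5.72 (SE 0.97, limma adjusted p = 0.0757). The size of the Gjb1 difference depends on the pseudocount because the RLSC signals were low: it was -4.46 with a pseudocount of 16 and -3.84 with 32. Within pairs it was -3.22 in A and -7.45 in B.

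Markers of hepatocytes and epithelium had lower signals on the arrays where Gjb1 was low. The summed signal of the 5 hepatocyte markers was 365 and 166 on the RLSC arrays and 5449 and 7842 on the MMH-D3 arrays. For 5 of 5 epithelial markers (Cdh1, Epcam, Krt8, Krt18, Krt19) both RLSC arrays lay below both MMH-D3 arrays. In deposited signal the groups did not overlap, in either direction, at 40.3% of all genes tested. The epithelial sums were 15491 and 25895 against 42561 and 51677. Of the hepatocyte markers Afp and Apob fell past the threshold (limma adjusted p = 0.0391 and 0.0371), while Alb, Ttr and Hnf4a (0.102 to 0.249) and the 5 epithelial markers (0.129 to 0.328) did not. Their part in the Gjb1 result was not tested.

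Gjb2 encodes connexin 26, which shares hepatocyte junctions with connexin 32. Its only named probe set, 1423271_at, read 10.4 in MetE14/3, 9.11 in WTE14/1, 11.5 on MMH-D3 array 1 and 4.52 on array 2. All of these lay under the filter level, the groups overlapped, and Gjb2 was not tested. Its difference in normalized values was 0.09, and with the filter removed it did not pass (limma adjusted p = 0.983). A signal this low sets no level for the transcript, and detection calls were not used here.

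Gjb5 encodes a connexin of stratified epithelium. Probe set 1449204_at read 29.1 in MetE14/3 and 1.05 in WTE14/1, against 86.5 and 72.8 on MMH-D3 arrays 1 and 2. The MMH-D3 arrays were close to each other and above both RLSC lines, of which WTE14/1 was near the floor. RLSC averaged 15.1 ± 19.8 and MMH-D3 79.7 ± 9.67 (SD, n = 2 arrays each). The difference of -2.75 (SE 0.97), 6.75-fold lower in RLSC, did not pass (limma adjusted p = 0.318, 95% interval -5.10 to -0.41). It was -1.83 with a pseudocount of 16 and -1.35 with 32. It was -1.60 within pair A and -3.91 within pair B. Without WTE14/1 it was -1.38 (limma adjusted p = 0.728) and without MetE14/3 -4.17 (0.0532).

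Of 4 markers of basal and stratified epithelium with a probe set, the basal keratin Krt14 lay with Gjb5 on the side of MMH-D3. MetE14/3 read 23.6, WTE14/1 3.27, and the MMH-D3 arrays 263 and 382. Krt5 read 14.8 to 29.4 over the 4 arrays with the groups overlapping, and Trp63, at 10.7 to 19.03, was higher on both RLSC arrays. Krt15 read 1.10 to 1.78, near the floor. The summed signal of the 4 was 53.3 and 53.5 on the RLSC arrays against 297 and 415 on the MMH-D3 arrays. Most of the MMH-D3 sums came from Krt14, and no other marker of the list was lower on both RLSC arrays. The part of these markers in the Gjb5 values was not tested.

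Gjc1 encodes connexin 45, a connexin of low-conductance junctions in embryonic and muscle cells. Probe set 1449094_at read 907 in MetE14/3 and 804 in WTE14/1, against 168 on MMH-D3 array 1 and 26.6 on array 2. The RLSC lines agreed closely and stood above both MMH-D3 arrays, which were far apart. RLSC averaged 856 ± 72.8 and MMH-D3 97.4 ± 100.04 (SD, n = 2 arrays each). The difference of 3.54 (SE 0.88), 11.6-fold higher in RLSC, did not pass (limma adjusted p = 0.162, 95% interval 1.41 to 5.67).

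The second Gjc1 probe set, 1447787_x_at, ordered the groups alike, reading 383.5 in MetE14/3 and 431 in WTE14/1, then 88.7 and 2.52 on MMH-D3 arrays 1 and 2. Its difference was 3.94 (SE 1.24, limma adjusted p = 0.304). Within pairs the Gjc1 difference was 2.24 in A and 4.84 in B. Without MMH-D3 array 2 it was 2.19 (limma adjusted p = 0.316), the smallest over the alternatives, and without array 1 it was 4.79 (0.0730).

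Of 6 mesenchymal markers, 3 had higher signals on both RLSC arrays. Of these, Acta2 and Tagln rose past the threshold (limma adjusted p = 0.0372 and 0.0402), while Col1a2 did not. Tagln read 8.80 and 1.23 on MMH-D3 arrays 1 and 2, under the filter level. It thus entered the test through its RLSC signals, and the size of its rise depends on the pseudocount. The summed signal of the 6 was 15547 and 28287 on the RLSC arrays and 14039 and 14261 on the MMH-D3 arrays, most of it from Vim, at which the groups overlapped. Of 5 muscle markers, 2 (Cnn1 and Actc1) were above, 1 (Myh6) below and 2 overlapped, with sums of 118.5 and 67.5 against 45.4 and 68.3. Every Myh6 signal lay under the filter level. In deposited signal the groups did not overlap, in either direction, at 40.3% of all genes tested. The part of the mesenchymal and muscle markers in the Gjc1 values was not tested.

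**Figure D2:**
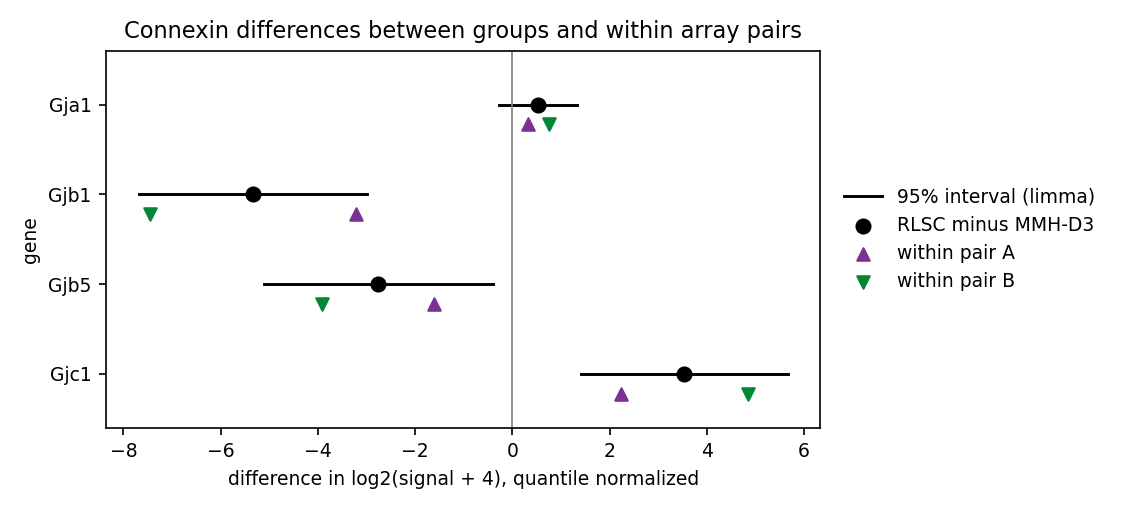
RLSC minus MMH-D3 in normalized log2(signal + 4) for the 4 tested connexins (black points, with limma's 95% interval as a bar) and the same difference within array pairs A and B (triangles). At the probe set that stands for it, each gene keeps 1 sign in both pairs. The difference is larger within pair B than within pair A for each of the 4.

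Gja1 encodes connexin 43, and none of its 6 probe sets passed the test between the groups. The probe set that stood for it, 1437992_x_at, read 4352 in MetE14/3, 3599 in WTE14/1, 3829 on MMH-D3 array 1 and 2171 on array 2. MMH-D3 array 1 lay between the RLSC lines and array 2 below them. RLSC averaged 3976 ± 532 and MMH-D3 3000.02 ± 1172 (SD, n = 2 arrays each), and the difference was 0.53 (SE 0.33, limma adjusted p = 0.619). Its 95% interval, -0.27 to 1.34, leaves room for no difference and for a value more than 2-fold higher in RLSC.

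The other Gja1 probe sets also had differences above 0 that did not pass, though their order of arrays varied. Probe set 1415800_at read 2708 and 2914 in the RLSC lines and 2780.0 and 1812 on MMH-D3 arrays 1 and 2. For 1438945_x_at the signals were 1723 and 2028 against 1590 and 1193, and for 1438650_x_at 867 and 1425 against 643.5 and 582. Over the 6 probe sets the difference ran from 0.41 to 0.87, with 6 of 6 above 0 and none past the threshold (limma adjusted p from 0.542 to 0.840). MMH-D3 array 2 was the lowest array for 5 of 6. The exception, 1438973_x_at, had far lower signals than the others, at 122 and 164 in the RLSC lines against 72.7 and 114. On deposited signals the groups did not overlap at 3 of 6, against 39.5% of the 27022 probe sets past the filter, and after quantile normalization at 5 of 6, against 40.8%. The x_at suffix of 4 of these (the other two are 1415801_at, at 1083 and 819 against 1204 and 386, and 1415800_at) marks probe sets whose probes can match other transcripts too. Mesothelial cells also carry connexin 43. The deposited Gja1 signals overlapped between the groups at 1437992_x_at, the probe set that stood for it, but not at 3 of 6. Mesothelial markers had lower signals on both RLSC arrays at 5 of 5, with sums of 2154 and 3001 against 12649 and 17822. Most of these sums came from Msln and Upk1b. Upk1b and Wt1 fell past the threshold (limma adjusted p = 0.0150 and 0.0361), while Msln and Upk3b (0.132 and 0.276) did not. The Wt1 signal in MetE14/3, 9.20, lay under the filter level, as did every Lrrn4 signal, and Lrrn4 was not tested. The part of the mesothelial markers in the Gja1 values was not tested.

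The group difference rests on MMH-D3 arrays that differed from each other at the same genes. Gjb1 was 5.26-fold higher on array 2 than on array 1 after normalization and Gjc1 6.61-fold higher on array 1. Thus 2 of the 4 tested connexins were at least 4-fold apart between arrays of 1 line, against 5.96% of all genes (3.02% higher on array 1 and 2.94% on array 2). The array with more Gjb1 had less Gjc1, while Gja1 was 1.63-fold and Gjb5 1.46-fold higher on array 1. Of the 5 hepatocyte markers, 4 had the higher deposited signal on array 2 (Alb, Apob, Ttr and Hnf4a), and Afp had the higher one on array 1, at 1457 against 923. Array and pair cannot be told apart within MMH-D3.

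**Figure D3:**
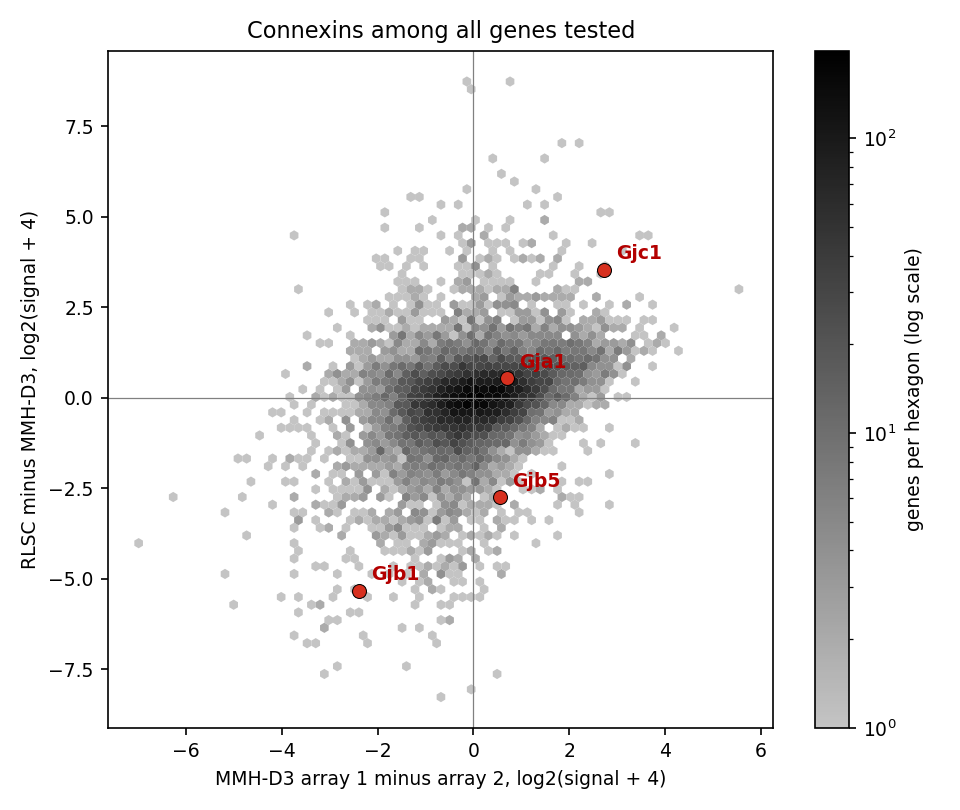
RLSC minus MMH-D3 (vertical axis) against MMH-D3 array 1 minus array 2 (horizontal axis), both in normalized log2(signal + 4), for 12598 genes shown as hexagons shaded by number, with the 4 tested connexins in red. The 2 axes share the MMH-D3 arrays. Gjc1 lies at 2.73 and 3.54, Gjb1 at -2.40 and -5.33, Gjb5 at 0.55 and -2.75, and Gja1 at 0.70 and 0.53.

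The RLSC lines, with 1 array each, can be set side by side without a test. Line, cyto-Met genotype and array pair (A for MetE14/3, B for WTE14/1) cannot be told apart in this comparison. MetE14/3 had the higher signal at both genes that were low in RLSC. For Gjb5 the signals were 29.1 against 1.05, a normalized difference of 2.85, and for Gjb1 22.6 against 5.14, a difference of 1.83. Both WTE14/1 signals lay under the filter level, so these sizes depend on the pseudocount and set no order between the lines. Gjb5 was the only 1 of the 4 tested connexins at least 4-fold apart, against 5.13% of all genes (2.80% higher in MetE14/3 and 2.33% in WTE14/1). With a pseudocount of 16 the Gjb5 difference shrank to 1.48, under that fold, and that of Gjb1 to 1.02. For Gja1 and Gjc1 the lines differed by 0.27 and 0.12, and with the median of each gene's probe sets by -0.39 and -0.01, so neither had a settled direction. MetE14/3 was above WTE14/1 at 2 of the 6 Gja1 probe sets. In order of level, both RLSC lines lay below both MMH-D3 arrays for Gjb1 and Gjb5 and above them for Gjc1.

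Genes with the most similar profile over the 4 arrays were taken by Euclidean distance between mean-centred normalized values. Nearest to Gjb1 were Bcas1 (distance 0.586), Sema4g (0.776) and Pof1b (0.783). Bcas1 read 24.2 and 12.1 in MetE14/3 and WTE14/1, and 273 and 2151 on MMH-D3 arrays 1 and 2, so it shared the rise from array 1 to array 2. Nearest to Gjb5 were Chn2, Pate14 (0.269) and S100a16 (0.443). Chn2 read 237 and 30.5 in the RLSC lines and 615 and 500.3 in MMH-D3.

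Nearest to Gjc1 were Cdh13 (distance 0.284), Shisa4 (0.396) and Adam12 (0.471). Cdh13, a cadherin anchored to the membrane by a lipid, read 189 and 233 in the RLSC lines and 35.7 and 4.02 on MMH-D3 arrays 1 and 2. Nearest to Gja1 were Pdrg1 (0.0675), Ttpal (0.0760) and Kifap3 (0.0763), small distances for a profile that varies little. With 4 arrays these distances describe the profiles and carry no test.

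**Figure D4:**
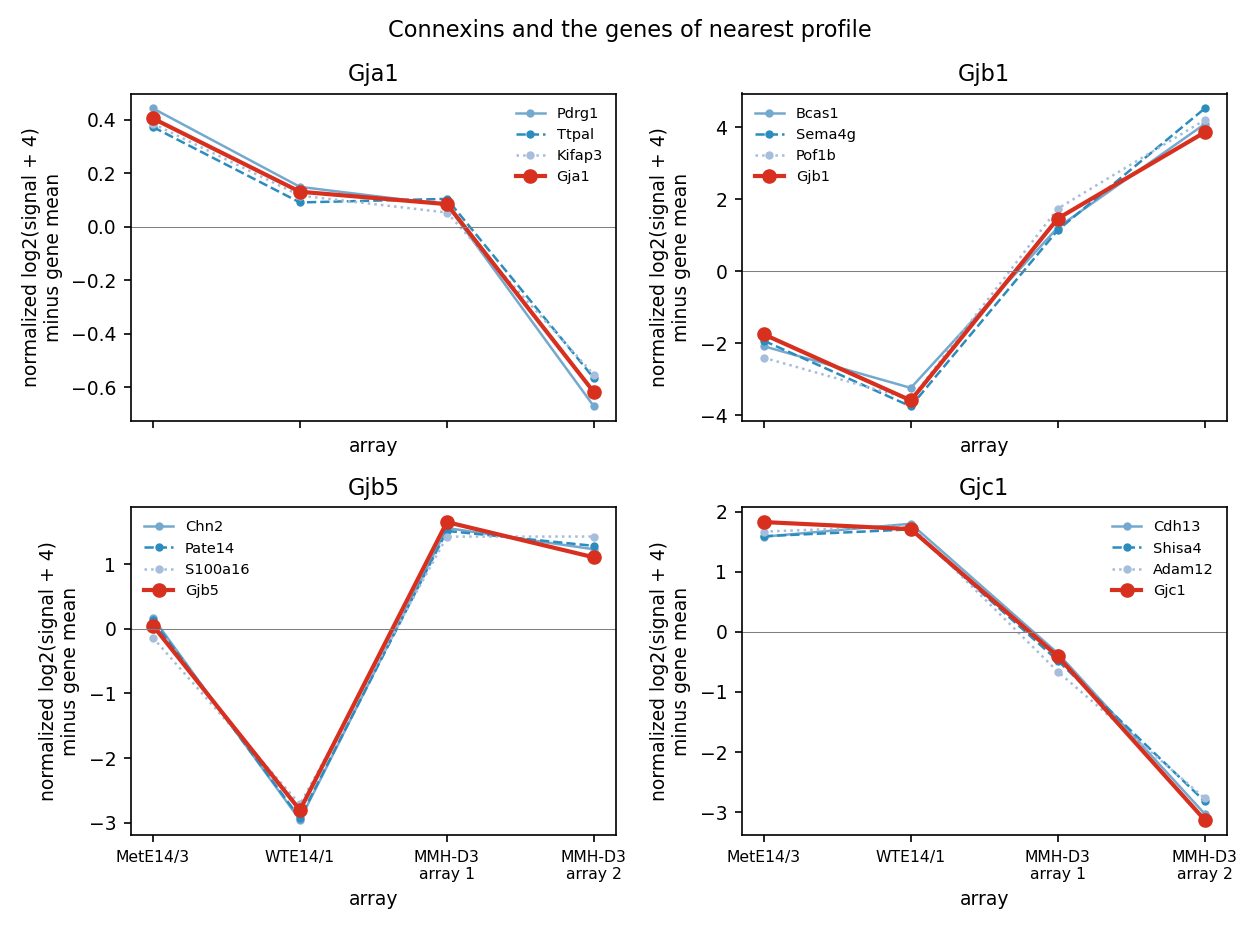
Normalized log2(signal + 4) minus each gene's mean on the 4 arrays for each tested connexin (red) and its 3 nearest genes (blue). Lines join the arrays for legibility only. The Gjb1 panel is lowest in WTE14/1 and highest on MMH-D3 array 2, and the Gjc1 panel is level over the RLSC lines and lowest on MMH-D3 array 2.

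The rest of the connexin family stayed near the floor. Of 15 other connexin genes sought, 9 had a probe set named here (Gja3, Gja4, Gja5, Gja10, Gjb6, Gjc3, Gjd2, Gjd4 and Gje1). None of their 12 probe sets passed the filter, and their signals ran from 0.20 to 24.3 over the 4 arrays. They include the endothelial connexins Gja4, at 2.91 to 16.9, and Gja5, at 1.79 or less. Of 5 endothelial markers, Pecam1, Cdh5, Tek and Emcn lay under the filter, with single signals up to 16.5, and Kdr passed it, at 17.6 and 36.5 in the RLSC lines and 4.10 and 34.7 in MMH-D3. The groups overlapped at all 5, with sums of 40.2 and 73.2 in RLSC and 23.8 and 76.7 in MMH-D3. Of the pannexins, channel proteins of similar topology, Panx1 read 406 and 232 in the RLSC lines and 308 and 196 in MMH-D3, and its difference of 0.25 (SE 0.53, limma adjusted p = 0.919) did not pass. Panx2 and Panx3 lay under the filter level.

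Proteins that bind connexins or build the junctions around them were measured as 14 of 15 genes sought, and 1 passed the test, against 0.913% of all genes. This was Ccn3 (formerly Nov), a matricellular protein known to bind connexin 43. It read 111 and 130.1 in the RLSC lines and 3.70 and 1.58 in MMH-D3, with both RLSC arrays above both MMH-D3 arrays. The rise was 4.08 (SE 0.56, limma adjusted p = 0.0398). Both MMH-D3 signals lay under the filter level of about 11.7. Ccn3 thus entered the test through its RLSC signals, and the size of the rise depends on the pseudocount. No gene of the list, Ccn3 included, passed without a filter. With the filter at the 60th percentile none passed either, but Ccn3, with a lower mean than Gjb5, was not tested there. The list's median difference was -0.48, against 0.03 over all genes tested, with 4 genes above in RLSC without overlap and 7 below, against 20.8% and 21.4% of all genes.

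The scaffold Tjp1 (ZO-1), which binds the tail of connexin 43, read 1477 and 1369 in the RLSC lines against 3626 and 2908, which differed by -1.12 (SE 0.29) and missed the threshold (limma adjusted p = 0.177). E-cadherin (Cdh1), on whose contacts gap junction assembly depends, read 522 and 45.2 against 3816 and 7390, a difference of -5.16 (SE 1.15, limma adjusted p = 0.129). N-cadherin (Cdh2) went the other way, with 1989 and 3436 against 1158 and 583 and a difference of 1.72 (SE 0.47, limma adjusted p = 0.202). Tjp1, Cdh1 and Cdh2 were named after their values were seen.

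No gene passed among 11 of 13 kinases that phosphorylate connexins (median difference 0.38) or 9 of 9 turnover genes (0.09). None passed among 8 of 10 regulators of connexin transcription (0.48) either. Over all genes tested 0.913% passed, so none passing in lists this short is no result about them. The median difference of all genes tested was 0.03. The kinases of highest mean signal were Cdk1, at 3326 and 4402 in RLSC and 3622 and 939 in MMH-D3, and Csnk1d. Their differences were 1.12 (SE 0.60) and 0.40 (SE 0.39). The ubiquitin ligase Nedd4, which acts on connexin 43, differed by 0.28 (SE 0.29), the autophagy receptor Sqstm1 by -0.01 (SE 0.48), and the factors Sp1 and Sp3 by -0.15 (SE 0.40) and 0.45 (SE 0.47).

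Of the AP-1 subunits, named after their values were seen, Fos read 71.2 and 115 in RLSC and 752 and 4619 on MMH-D3 arrays 1 and 2, and differed by -4.40 (SE 0.86, limma adjusted p = 0.0933). Jun differed by 0.82 (SE 0.42, limma adjusted p = 0.521).

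**Figure D5:**
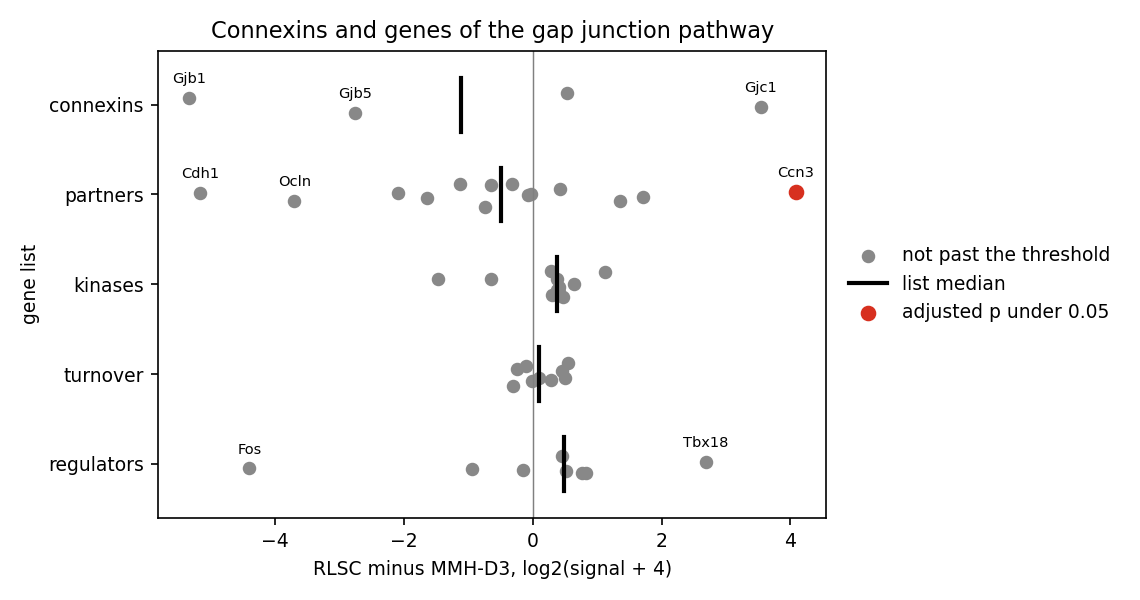
RLSC minus MMH-D3 in normalized log2(signal + 4) for the tested connexins and the genes of 4 pathway lists, 1 point a gene, with a black bar at each list's median and genes more than 2.5 from 0 named. Ccn3, in red, is the only gene shown here with an adjusted p under 0.05.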

How the data were processed

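RNA of 4 samples was hybridised to 1 Affymetrix Mouse430_2 array each, from 5 µg of total RNA and 15 µg of fragmented cRNA. The authors deposited 1 linear intensity (a signal) per probe set and array, and the submitters' processing notes name GCOS as the tool, with version and scaling not given in the sources used. The 2% trimmed mean was 200.001 on each array. Of 45101 probe sets, 64 controls were left out, and 34945 had 1 symbol in the platform annotation, checked by Entrez identifier against RefSeq (34741 matched, 0 changed).

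Values were taken as log2(signal + 4) and quantile normalized, since array medians differed by 0.614 on that scale. Probe sets with a mean under the 40th percentile were dropped, and the probe set of highest mean stood for its gene, leaving 12598 genes. RLSC and MMH-D3 were compared with limma 3.58.1 in R 4.3.3 (lmFit, eBayes with trend, two-sided, Benjamini-Hochberg over all genes, 2 residual and 4.24 prior degrees of freedom). The number of arrays limits the precision: an exact permutation of 2 against 2 arrays could not go below p = 0.333. The fit was checked on simulated data.

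The members, gene lists and alternatives were chosen with earlier results of these data known. Named are all members, other connexins and pannexins, of each list up to 3 genes past the threshold (otherwise the 2 of highest mean), and the 3 nearest profiles per member. Any further gene was named after its values were seen, or as a marker from a fixed list. A further motif that was searched, and 1 sought regulator, are not reported here.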

Additional observations from a re-analysis of the deposited data

How the results depend on the processing

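The RLSC against MMH-D3 difference of each tested connexin kept its sign under every alternative that gave one. Within both array pairs it also did so at the probe set that stood for the gene. The Gja1 probe set 1415801_at did not, at -0.095 in pair A and 1.14 in pair B. The untested Gjb2 difference changed sign, from -0.48 to 0.67, when single arrays were left out. The number of connexins past the threshold was 0 in each direction under every alternative but 1: without MetE14/3, Gjb1 passed as lower in RLSC (-6.23, limma adjusted p = 0.0492). Leaving out 1 array at a time gave 0 to 1 connexins lower and 0 higher, and Gjb1 differences from -6.42 to -4.14. Over all genes it gave 0 to 52 higher and 0 to 154 lower, against 50 and 65; both were 0 without either MMH-D3 array. Without a filter 4 genes were higher and 5 lower. With 1 array left in a group, the fit assumes that it varies as the other group does.

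With the poly-A pair as a block, no connexin passed (Gjb1 adjusted p = 0.0757, Gjc1 0.0846), and 1 regulator did. No paired analysis by replicate number was possible because the RLSC labels carry no replicate numbers. Between the RLSC lines, Gjb1 differed by 0.66 with a pseudocount of 32 in place of 1.83, and Gjb5 by 1.48 with 16 and 0.95 with 32 in place of 2.85, as low values shrink towards 0 under a larger pseudocount. With the filter at the 60th percentile Gjb5 was not tested. Signals under about 11.7 limit the sizes given. Among them were those of Gjb2, and of Gjb1 and Gjb5 in WTE14/1. Others were those of the second Gjc1 probe set on MMH-D3 array 2 and of Ccn3 and Tagln on both MMH-D3 arrays.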
